A study of Sorghum bicolor with 14 samples.

Results

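In the middle internode of sweet sorghum plants left without water, 285 genes had their lowest transcript level at a soil moisture of about 7%, at least 2-fold below the levels at both about 13% and about 2%. They were chosen from the 16801 genes measured in the drought series, of 32726 listed, by their own values in it: on the scale of log2(FPKM + 1), the lower of the levels at 13% and 2% exceeded the level at 7% by at least 1. That is 1.70% of the genes measured. The dip is therefore what defines these genes and is described without a test. The stage series was not used to choose them.

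The plants were of the variety CSV24SS, grown in India, and RNA came from the middle stem internode. In the drought series, 1 plant stood in each pot and watering ended when the flag leaf appeared. Harvest was at booting, before the panicle emerges from its sheath, at about 13% (D1), 7% (D2) or 2% (D3) soil moisture, with 2 samples per reading. No group of pots that stayed watered was analysed here, so the drying of the soil and the days without water cannot be told apart. In the stage series, watered plants in a soil bed with nitrogen fertiliser were sampled at floral initiation (FI), at booting (B), and during grain filling at the milky stage (MS) and at soft dough (SD), again with 2 samples each.

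The values are FPKM, fragments scaled to transcript length and to sequencing depth. The authors gave 1 value for a gene in each group. No spread between replicates can be given, no test was possible, and higher and lower compare 2 single values. Read depth is unknown. Folds are ratios of FPKM, and a gene was counted as different at a log2(FPKM + 1) difference of at least 1, which understates low genes. In bulk tissue, fewer cells of a type and less RNA per cell cannot be told apart.

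Sweet sorghum stores sucrose in its stem parenchyma, and the stem is also the site of secondary wall and lignin deposition. Water shortage slows cell expansion before it slows photosynthesis, and many stem transcripts follow plant water status, hormone levels and the time of day. The 3 genes below that carry a name were identified in published work on these loci. The other genes are given by their Sobic identifiers, because the tables used here pair no description with them.

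The median level of the 285 genes was 14.6 FPKM in D1, 2.44 in D2 and 14.2 in D3. Over all genes measured the medians were 12.1, 11.4 and 12.003 FPKM. D1 was a median 5.08-fold above D2 among the dipping genes, and D3 a median 4.76-fold above it. In D2, 83 of the 285 were under 1 FPKM and 4 were listed at 0. The low point was shallow in most cases, with a log2 difference from 1 to 1.5 for 161 genes, from 1.5 to 2 for 74, from 2 to 3 for 40 and above 3 for 10.

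At the edge of the rule lay Sobic.002G415600, Sobic.001G138600 and Sobic.010G084400, just inside it with log2 differences between 1.0003 and 1.003. All 3 fell short of 1 after median ratio rescaling, at 0.989, 0.987 and 0.995, and after quantile normalization, at 0.846, 0.843 and 0.924. Sobic.006G149400, the row of Sobic.001G398500 and Sobic.001G398600, and Sobic.007G156700 lay just outside it, at 0.9975, 0.996 and 0.9952. The same rule with its sign turned, D2 at least 1 above both other readings, found 101 genes, 0.601% of those measured. Genes that dipped at 7% thus outnumbered those that peaked there, although the median log2 difference over all genes measured was 0.0117 from D1 to D3 and nearer to 0 for the other pairs of readings.

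The gene with the deepest dip among those at 5 FPKM or more in D1 and D3 and above 0 in D2 was Sobic.004G305000 (chromosome 4, 64360567 to 64363501, in the coordinates of the deposited table). The sources used here do not give the genome build. The gene stood at 21.2 FPKM in D1, 0.378 in D2 and 16.4 in D3. Sobic.006G210300 (chromosome 6, 55996536 to 55997629) was at 127, 10.6 and 190 FPKM. Sobic.004G065900 (chromosome 4, 5352083 to 5353418) was at 31.9, 2.02 and 46.0 FPKM. In each of these genes both outer readings exceeded the middle one by more than 10-fold.

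Sobic.010G016500 (chromosome 10, 1315564 to 1316314) was higher in D1 than in D3, at 54.2, 0.819 and 16.8 FPKM. Sobic.009G217500 (chromosome 9, 56181501 to 56182962) had the opposite asymmetry, at 11.97, 0.878 and 51.3 FPKM, and so did its neighbour Sobic.009G217600 at 8.40, 0.496 and 18.3 FPKM. Sobic.001G482600 (chromosome 1, 75415875 to 75416893) stood at 119, 13.7 and 285 FPKM. The level at 2% moisture was therefore below the 13% level in some genes and above it in others.

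Over the 25 genes with the deepest dips, D1 was 5.72-fold to 66.2-fold above D2 and D3 5.79-fold to 58.5-fold above it, and D3 was the higher of the 2 outer readings in 14. Among all 285, D3 was above D1 in 147 and below it in 138. It was at least 2-fold above D1 in 44 genes and at least 2-fold below in 38, and 203 lay within 2-fold. The rule sets a floor under both readings, so these counts are given as a description only, beside 5.12% higher and 3.49% lower over all genes measured.

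**Figure D1:**
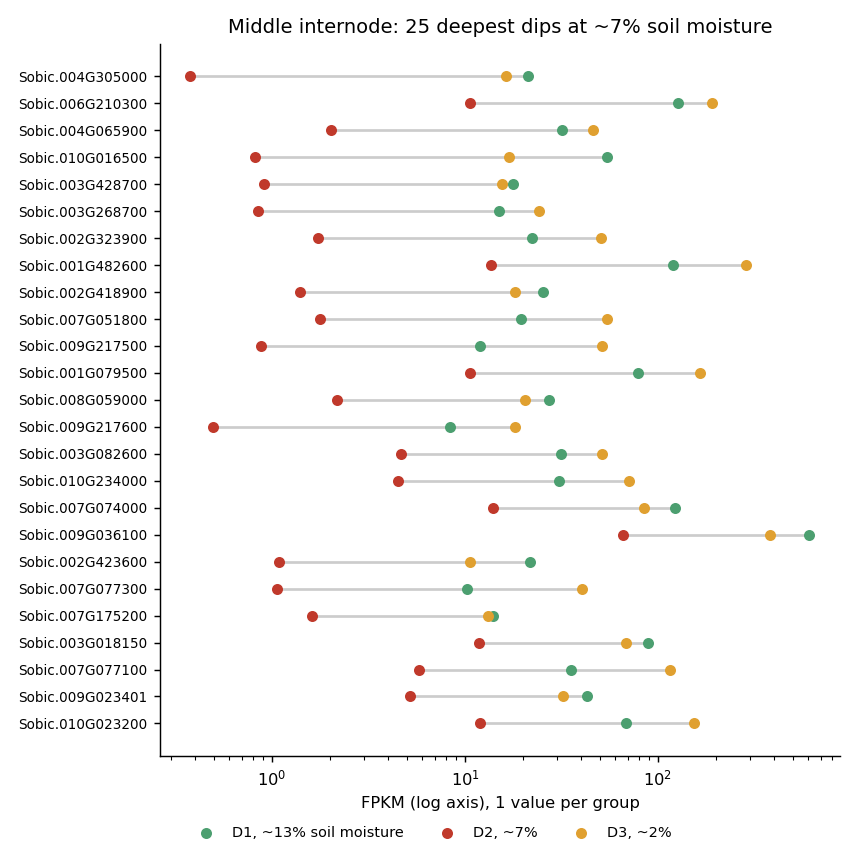
FPKM on a log axis of the 25 genes with the deepest dips, with 1 point per gene and reading (D1 green, D2 red, D3 amber). D2 lies to the left of both other points in each gene by the rule, at 0.378 to 65.6 FPKM, while D1 and D3 change order from gene to gene.

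Abundant transcripts were among the dipping genes: 48 had at least 50 FPKM in both D1 and D3, and 19 at least 100. Sobic.009G036100 (chromosome 9, 3308617 to 3309109) was at 611 FPKM in D1, 65.6 in D2 and 380 in D3. Sobic.009G247900 (chromosome 9, 58314957 to 58315781) was at 511, 196 and 556 FPKM, and Sobic.001G481201 (chromosome 1, 75298627 to 75300279) at 388, 87.9 and 376 FPKM. These had nearly equal outer values or a moderate difference between them.

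Sobic.002G384400 (chromosome 2, 73966176 to 73967637) was at 605, 147 and 315 FPKM and Sobic.006G032200 (chromosome 6, 6967373 to 6980060) at 627, 87.7 and 227 FPKM, so both were lower in D3 than in D1. Sobic.008G149900 was at 445, 162 and 378 FPKM. Sobic.001G488000 and the row that starts with Sobic.006G258700 and holds 4 gene models were higher in D3, at 305 and 417 FPKM, than in D1, at 213 and 307 FPKM, with 80.9 and 152 FPKM in D2. The dip of the last row, 1.01 on the log2 scale, fell to 0.986 after median ratio rescaling. That row, Sobic.006G032200 and Sobic.001G488000 share their loci with other rows, so their values are uncertain.

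The row with the highest level is uncertain. It joins Sobic.010G182100, Sobic.010G182200, Sobic.010G182300 and Sobic.010G182600 over 52122843 to 52228422 of chromosome 10 and was listed at 2661 FPKM in D1, 0 in D2 and 2327 in D3, and at 0 in all 4 stages. Sobic.010G182500, at the same locus, was likewise listed at 0 in D2 and in all 4 stages. In a table without counts a 0 may be a failed estimate, so no fold is given. Of the other genes listed at 0 in D2, Sobic.002G288700 had 4.50 FPKM in D1, 4.64 in D3, and shares its locus with other rows. Sobic.001G259700 was at 2.43 and 6.46 FPKM, and Sobic.006G216500 at 1.78 and 1.03.

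Of 20 identifiers for stem sugar, wall, lignin and clock genes, 18 were measured in the drought series and 3 dipped at 7%. Over all genes measured the share was 1.70%. The identifiers were listed with earlier results of these data known, so the count does not measure how often such genes dip. With 5 FPKM in place of 1 added before the log, 1 of the 3 still passed the rule. 4CL (Sobic.004G062500, chromosome 4, 5041259 to 5046446), 4-coumarate CoA ligase, activates the hydroxycinnamic acids from which lignin and flavonoids are made. It was at 30.4 FPKM in D1, 4.10 in D2 and 16.6 in D3. PAL and C4H, the enzymes that act before it in the pathway, were highest in D2, at 265 and 50.1 FPKM against 121 and 9.26 in D1 and 211 and 33.4 in D3. The row of a neighbouring gene has the same locus as PAL, so the PAL values are uncertain. These PAL and C4H genes, chosen after their values were seen, thus stood in opposite order to this 4CL gene across the readings. The other lignin genes on the list differed from each other. CCoAOMT (Sobic.010G052200) had the order of 4CL, lowest in D2 without passing the rule, at 68.5, 47.4 and 58.8 FPKM. CAD (Sobic.004G071000) had neither order and was higher at each drier reading, at 37.5, 49.2 and 72.5 FPKM. The order of the pathway as a whole was not tested.

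A SWEET gene, Sobic.004G133500 (chromosome 4, 21147662 to 21152806), encodes a member of a family of sugar carriers that let sugars pass down their gradient. It was at 56.8 FPKM in D1, 18.4 in D2 and 39.6 in D3. Its dip, 1.07 on the log2 scale, came to 0.931 with 5 FPKM added before the log. The other SWEET gene of the list, Sobic.008G094000, was highest in D2, at 180, 219 and 170 FPKM. The cellulose synthase Sobic.003G296400 (chromosome 3, 62851273 to 62857742), a subunit of the complex that spins cellulose, was at 1.74, 0.354 and 1.81 FPKM. That dip, 1.02 on the log2 scale, came to 0.881 after quantile normalization. Of the other cellulose synthases on the list, the more abundant Sobic.002G118700 was highest in D2, at 53.2, 91.8 and 27.6 FPKM. Sobic.001G224300, at 1.74, 0.0922 and 0.868 FPKM, fell short of the rule with a log2 difference of 0.774.

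In the stage series, 275 of the 285 genes were found once by name, and 11 of these stayed under 1 FPKM in every stage. None of the stage values entered the rule. The genes had a marked order of stages. At booting 147 of 275 were at least 2-fold lower than at floral initiation, 53.5%, against 12.7% of the 16277 matched genes measured in the drought series. Another 31, 11.3%, were higher, against 9.28%. The median log2 difference was -1.15 for the dipping genes and 0.06 for the 16277.

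From booting to the milky stage 99 genes, 36.0%, were at least 2-fold higher, against 6.11% of all, and 41, 14.9%, were lower, against 6.24%. From the milky stage to soft dough 136 genes, 49.5%, were higher, against 5.65%, and 5, 1.82%, were lower, against 4.39%. The medians of these 2 steps were 0.61 and 0.96, against -0.04 and 0.00. At soft dough compared with floral initiation 95, 34.5%, were higher and 43, 15.6%, lower, against 10.5% and 13.0%. Lower at booting and higher at soft dough were thus the more frequent directions of these steps.

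A stage range of at least 2-fold was found for 244 of the 275, 88.7%, against 42.8% of all. Of the matched genes found by the rule with its sign turned, 88 of 99, 88.9%, had such a range. Among those at least 2-fold higher at 13% than at both other readings it was 309 of 422, 73.2%. A wide stage range was thus not particular to the dipping genes. The lowest stage was booting in 154 of the 244 and the highest was soft dough in 143. Both held in 115, 47.1%, whereas soft dough was highest and booting lowest in 11.1% of the 6964 genes of that range overall. Floral initiation was the highest stage in 58, booting in 35 and the milky stage in 8.

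**Figure D2:**
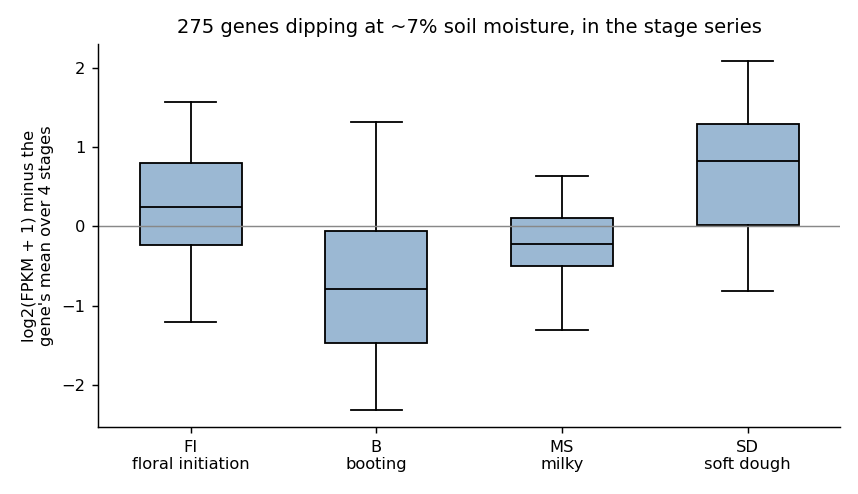
Each gene's log2(FPKM + 1) at a stage minus its own mean over the 4 stages, for the 275 dipping genes found by name in the stage series. Boxes span the quartiles with the median as a line and whiskers reach the 5th and 95th percentiles over genes, and the booting box lies lowest and the soft dough box highest.

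The deepest dips in the pots went with this stage order most often. Of 50 genes with a dip of at least 2 on the log2 scale, 35 were lower at booting than at floral initiation and 35 were higher at soft dough than at the milky stage. Between 1.5 and 2 the count was 44 of 73 for each step, 60.3%. Between 1 and 1.5, 68 of 152, 44.7%, were lower at booting and 57, 37.5%, higher at soft dough. Genes below the threshold, with a dip of 0.5 to 1, had 27.6% and 18.2% of 627, and genes with a dip between -0.5 and 0.5 had 10.2% and 4.33% of 12405. Down to there the shares decreased from class to class, as a description across genes, which are not replicates. Genes with a dip between -1 and -0.5 had 15.1% and 3.66% of 2185, so the share lower at booting was higher again.

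Among the 25 deepest dips, booting was the lowest stage in 23 and soft dough the highest in 21, both in the same 21 genes. Sobic.009G217500 was at 218, 13.6, 151 and 400.5 FPKM over FI, B, MS and SD, a difference of 29.4-fold between B and SD. Sobic.004G305000 was at 37.2, 5.18, 24.5 and 136 FPKM, and Sobic.002G418900 (chromosome 2, 76655366 to 76659054) at 124, 21.2, 56.1 and 305 FPKM. These profiles shared their lowest and highest stage, but the folds between stages differed. In that order of genes, FI was 16.0-fold, 7.18-fold and 5.82-fold above B, and SD was 2.65-fold, 5.57-fold and 5.43-fold above MS.

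Sobic.002G323900 (chromosome 2, 69486473 to 69487382) was at 225, 42.5, 142 and 362 FPKM over the stages, and at 22.2, 1.72 and 50.4 FPKM in D1, D2 and D3. Sobic.001G079500 (chromosome 1, 6104058 to 6105842) was at 393, 169, 328 and 948 FPKM, and at 78.6, 10.6 and 165 in the pots. Sobic.007G051800 (chromosome 7, 5299966 to 5302054) was at 569, 262, 935 and 1150 FPKM, and at 19.4, 1.77 and 54.4 in the pots. Booting was the lowest stage and soft dough the highest in each.

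The other genes of the 25 with this order were Sobic.006G210300, Sobic.004G065900, Sobic.003G428700, Sobic.003G268700, Sobic.001G482600, Sobic.008G059000, Sobic.009G217600, Sobic.003G082600, Sobic.010G234000, Sobic.007G074000, Sobic.009G036100, Sobic.007G077300, Sobic.003G018150, Sobic.007G077100 and Sobic.010G023200. Sobic.009G036100, the most abundant of them, was at 204, 107, 401 and 1363 FPKM.

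The 4 exceptions were highest at booting or at floral initiation. Sobic.009G023401 (chromosome 9, 2087685 to 2089735) was highest at booting, at 8.28, 92.9, 48.2 and 41.7 FPKM, although it dipped in the pots, at 43.0, 5.17 and 32.2 FPKM. Sobic.010G016500 was highest at floral initiation, at 38.3 FPKM, and lowest at the milky stage, at 5.01 FPKM. Sobic.007G175200 was highest at floral initiation, at 167 FPKM, as was Sobic.002G423600, and both were lowest at booting. Sobic.002G423600 stayed at or under 2.06 FPKM in all stages but stood at 21.8 FPKM in D1, 1.09 in D2 and 10.7 in D3.

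The largest differences between stages lay in genes that were less extreme in the pots. Sobic.010G246700 had 1099 FPKM in FI but 5.58 in B, and Sobic.001G541300 had 312 and 1.53. From booting to the milky stage Sobic.001G035000 went from 2.59 to 52.2 FPKM and Sobic.001G482700 from 9.50 to 159. From the milky stage to soft dough Sobic.002G376400 went from 3.45 to 65.4 FPKM and Sobic.006G146500 from 12.6 to 115. The dip of Sobic.006G146500, 1.01 on the log2 scale, came to 0.992 after median ratio rescaling and 0.873 after quantile normalization.

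Other genes were higher at booting, or lower at a later stage. Sobic.001G353400 had 0.129 FPKM in FI but 12.6 in B, and Sobic.008G162600 had 0.0653 and 22.2, the latter at 0.0248 in MS. Sobic.002G051400 had 62.2 FPKM in B against 1.501 in MS, but its pot values of 12.04, 0.517 and 2.08 FPKM put its dip at 1.02, and at 0.884 after quantile normalization. Sobic.004G049400, at 55.5 and 16.3 FPKM, and Sobic.002G362000, at 22.4 and 9.996, had the largest decreases from the milky stage to soft dough. Between the first and the last stage, Sobic.002G279600 was lower at soft dough, with 37.5 and 2.11 FPKM. Sobic.006G190100, at 14.6 and 226 FPKM, and Sobic.001G035100, at 3.73 and 71.2, were higher at soft dough.

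**Figure D3:**
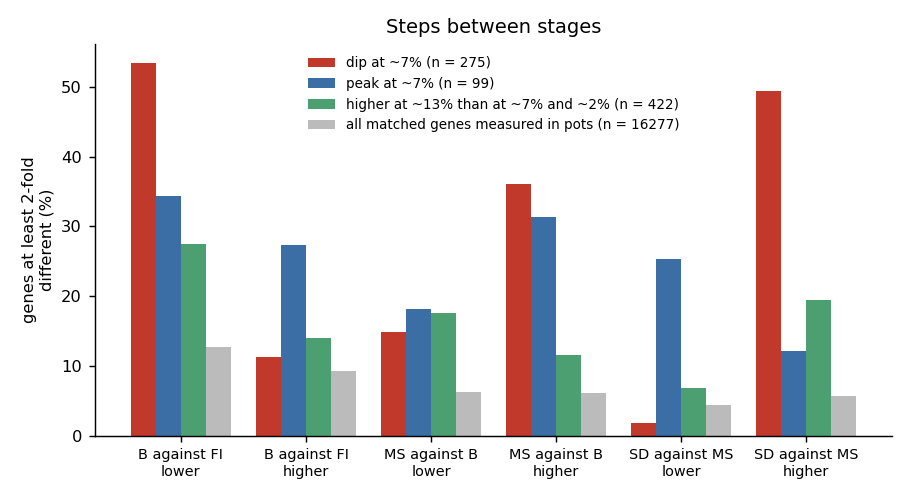
Share of genes at least 2-fold lower or higher in each step between consecutive stages, for the dipping genes (red, n = 275), genes peaking at 7% (blue, n = 99), genes at least 2-fold higher at 13% than at both other readings (green, n = 422) and all matched genes measured in the pots (grey, n = 16277). The red bars stand highest for lower at booting, at 53.5%, and for higher at soft dough, at 49.5%.

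Genes chosen for a difference in the pots also differed more between stages when chosen by other rules. Of the 99 matched genes that peaked at 7%, 34 were lower and 27 higher at booting than at floral initiation, 31 were higher and 18 lower at the milky stage than at booting, and 12, 12.1%, were higher at soft dough than at the milky stage and 25, 25.3%, lower. Of the 422 matched genes at least 2-fold higher at 13% than at both other readings, 116, 27.5%, were lower and 59, 13.98%, higher at booting, and 82, 19.4%, were higher and 29, 6.87%, lower at soft dough. No test of these differences was possible with 1 value per group, and genes are not independent replicates.

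Levels set across the 2 series come from tables that were taken as normalised separately, and pots and soil bed differ in more than water. With that limit, all 3 pot values were below every stage in 53 of the 275 genes, 19.3%, against 12.2% of the 16277. They were above every stage in 16, 5.82%, against 23.4%, and D2 is low in them by the rule. Among the 16 were Sobic.002G384400, with stage values between 25.8 and 133 FPKM, and Sobic.001G353400, at 325, 32.6 and 76.6 FPKM in the pots and at most 12.6 in a stage. Sobic.009G247900 was below every stage in all 3 pot values, with 626 to 2021 FPKM over the stages.

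The 35 genes highest at booting included several of the abundant ones. Sobic.006G032200 was at 164, 673, 207 and 223 FPKM over the stages. Sobic.001G488000 was at 120, 352, 112 and 131 FPKM, and Sobic.009G199401 (chromosome 9, 54945711 to 54947972) at 109, 250.1, 23.9 and 47.3. The last stood at 298 FPKM in D1, 31.7 in D2 and 111 in D3. These genes were highest at the stage that was lowest in 154 of the 244. Sobic.006G032200 and Sobic.001G488000 share their loci with other rows, so their values are uncertain.

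The 3 named genes did not share a stage order. 4CL was at 167, 101, 88.0 and 122 FPKM over FI, B, MS and SD, within 2-fold at each step, and the cellulose synthase Sobic.003G296400 at 62.7, 23.4, 3.54 and 22.0, lowest at the milky stage. The SWEET gene was highest at booting, at 16.6, 41.2, 22.2 and 24.7 FPKM.

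Dipping genes lay close to each other on the chromosomes in several places. Within 5 rows of another one, in chromosome order, were 65 of the 285, 22.8%, in 28 groups. The same count was 92 of 442, 20.8%, for the genes higher at 13% and 5 of 101 for those peaking at 7%. A larger set has more neighbours by its size alone, and rows that share a locus count as neighbours. The share for random rows was not computed, so these counts are a description and cannot be compared between the sets. Chromosome 5 had 5 of its 785 measured genes among them, 0.637%, and chromosome 10 had 30 of 1383, 2.17%.

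On chromosome 7, 4 neighbouring genes between 8904277 and 8924777 all dipped and all were higher in D3 than in D1. Sobic.007G077001 was at 21.4, 3.73 and 72.0 FPKM in D1, D2 and D3, Sobic.007G077100 at 35.6, 5.81 and 116. Sobic.007G077200 was at 12.1, 2.39 and 70.1 FPKM and Sobic.007G077300 at 10.2, 1.06 and 40.6. Over the stages each was lowest at booting, at 28.7, 40.2, 14.7 and 7.85 FPKM in that order of genes, and highest at soft dough, at 152, 237, 140 and 144 FPKM. The 4 genes had the same order of columns within each series.

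The group with the most dipping genes, 5 among 9 rows, lay on chromosome 6 between 57419856 and 57445069. Sobic.006G230500 was at 65.7, 28.5 and 69.4 FPKM in the pots, and at 8.61, 89.5, 26.3 and 19.1 over the stages. Sobic.006G230900 was at 23.3, 0.368 and 3.13 FPKM, and at 9.19, 29.6, 4.08 and 3.32 over the stages. Both were highest at booting.

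Sobic.006G231100, Sobic.006G231200 and Sobic.006G231332 were at 98.1, 371 and 470 FPKM in D1, 13.5, 34.2 and 166 in D2, and 31.6, 93.1 and 366 in D3. The last 2 of these share a locus, so their reads may have been split between rows. In the stage table the 3 are joined in 1 row, at 205, 2409, 355 and 166 FPKM over the stages, so they are not among the 275 matched genes. That row too was highest at booting.

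**Figure D4:**
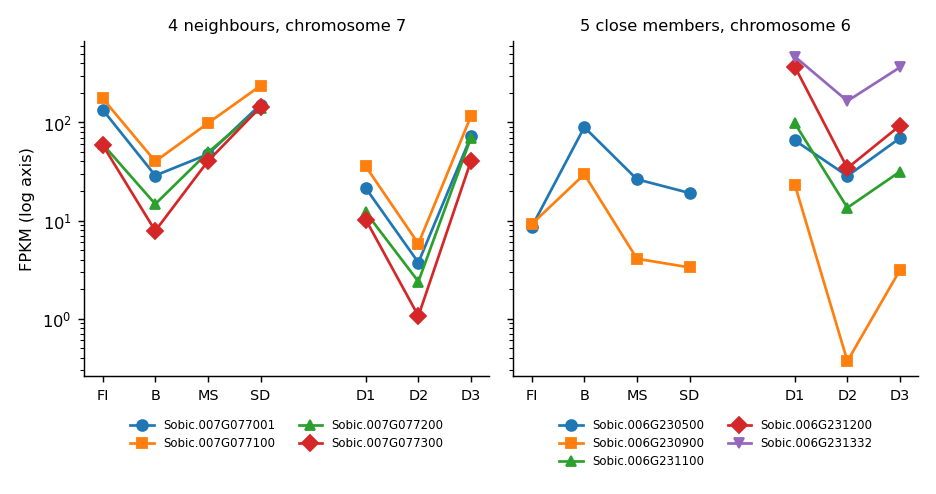
FPKM on a log axis in the 4 stages and the 3 soil moisture readings for 2 groups of neighbouring dipping genes, with 1 line per gene. The 4 genes of chromosome 7 are lowest at booting and at 7%, while the 2 genes of chromosome 6 with a stage row of their own are highest at booting, at 89.5 and 29.6 FPKM, and lowest at 7% among the pots.

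Another group lay on chromosome 2 between 65291663 and 65318342. The row of Sobic.002G269300 and Sobic.002G269400 was at 274, 41.2 and 202 FPKM in D1, D2 and D3 but only at 15.0, 14.4, 9.63 and 45.7 over the stages. Sobic.002G269500 was at 17.0, 3.72 and 14.8 FPKM and under 1 FPKM in every stage. Sobic.002G269100 was at 2.70, 0.298 and 8.06 FPKM, and Sobic.002G269032 at 1.40, 0.0858 and 1.92 and listed at 0 in every stage. This group was highest in the pots, apart from Sobic.002G269100, which reached 26.8 FPKM at soft dough.

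The dipping genes were short. Among rows with 1 gene model and a locus of their own, the median locus span was 1693 bases for 242 dipping genes and 3905 for the 13363 measured, against 2468 for the 83 that peaked at 7%. The share that dipped was 8.16% of 539 loci under 1000 bases and 6.596% of 1607 from 1000 to 2000. It was 2.24% of 2275 from 2000 to 3000, 0.655% of 4581 from 3000 to 5000 and 0.252% of 4361 longer ones. The dip thus became rarer in each longer class, and so did the peak at 7%, at 1.67%, 1.43%, 0.747%, 0.480% and 0.275%. The median span of the genes higher at 13% was 2959.5 bases.

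Over all loci of the shortest class the median log2 difference was -0.06 from D1 to D2 and 0.37 from D2 to D3, and in the next class -0.05 and 0.16. The stage order was looked at within short loci as well. Of 197 matched dipping genes with a locus under 3000 bases, 114, 57.9%, were lower at booting than at floral initiation, against 20.6% of 4358 loci of that span, and 113, 57.4%, were higher at soft dough than at the milky stage, against 11.2%. The differences from all genes were thus present among loci under 3000 bases. Span was not matched within that cut, where the dip was more frequent in the shorter classes. The stage steps changed with span there too. Over all loci the median log2 difference from floral initiation to booting was -0.33 under 1000 bases and -0.04 from 2000 to 3000. The part of span in the dip and in the stage order was not tested.

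The levels of 3 circadian clock genes, picked with their values known, are given beside these. LHY (Sobic.007G047400), a clock repressor known to peak around dawn in Arabidopsis, was at 7.28 FPKM in D1, 40.1 in D2 and 26.02 in D3, and over the stages at 16.8, 180, 134 and 25.8. TOC1 (Sobic.004G216700), an evening gene in Arabidopsis, was at 117, 51.6 and 74.1 FPKM in the pots and 14.4, 19.0, 13.9 and 43.2 over the stages, and so was not lowest at booting. GI (Sobic.003G040900), a clock gene that also acts in flowering, varied less, at 155, 210 and 176 FPKM and 115, 263, 233 and 210.

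The median of the 275 matched genes was 14.6, 2.39 and 14.7 FPKM in the pots and 27.6, 10.9, 16.9 and 37.7 over the stages. It was lowest within each series in the column where LHY was highest, but the low point in D2 is set by the rule, and only that at booting is independent of it. At the milky stage LHY was still at 134 FPKM, with a median of 16.9 for the dipping genes. In D1 and D3 it was about equal, although LHY was 7.28 and 26.02 FPKM. The sources used here do not give the hour of harvest, and the part of the clock in the dip was not tested.

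**Figure D5:**
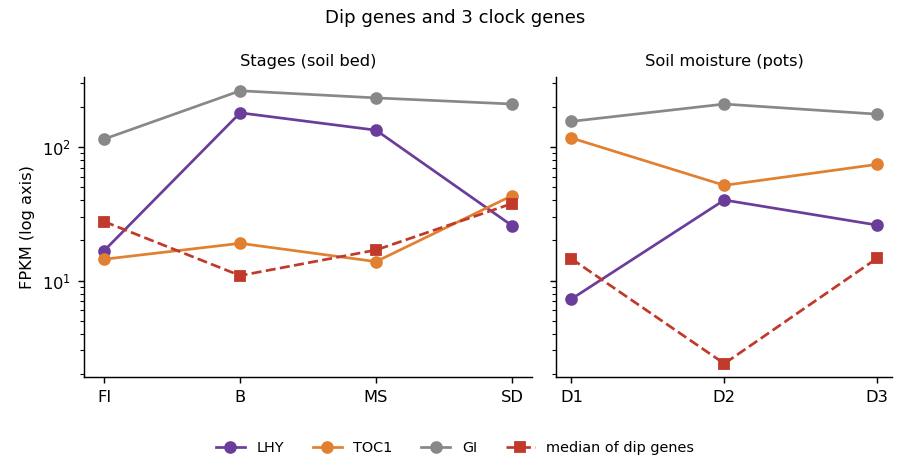
FPKM on a log axis of the clock genes LHY, TOC1 and GI and, dashed, the median over the 275 dipping genes found in both series, in the 4 stages (left) and the 3 soil moisture readings (right). The dashed line is lowest at booting (10.9 FPKM) and at 7% (2.39 FPKM), the columns in which LHY is highest within each series, and the low point at 7% is set by the rule.

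The columns also differed in make-up. Summed over all rows, FPKM came to 688376 in D1, 829722 in D2 and 788447 in D3, and the 10 most abundant rows held 5.82%, 9.18% and 9.55% of it. At least 1 FPKM was reached by 16039 rows in D1, 15581 in D2 and 16077 in D3. The part of column make-up in the dip was not tested. The dry-stalk NAC gene Sobic.006G147400, the one stem gene of the list tied to pith, was present at 119, 66.2 and 84.3 FPKM. Markers of green tissue, to be found by description, could not be looked up.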

How the data were processed

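Per the labels, libraries were made from total RNA with a stranded kit. The sheet holds FPKM by the authors, per the file headers, as a stage table and a drought table with 1 value per row and group. Tools listed in the submitters' processing notes, with no roles, are Cuffdiff, HISAT2 2.0.5, Bowtie2 2.2.9 and cutadapt 1.8.1. The genome build and the way both samples of a group became 1 value are not given in the sources used here. There were 0 value columns not used.

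Here, log2(FPKM + 1) was taken and the rule applied to the 32726 rows of the drought table. A gene was measured at 1 FPKM or more in at least 1 column of that table, and each of the 285 dipping genes met this by construction. Of these rows, 19 hold several gene models and 29 share their locus, so reads could have been split. Names found once in each table (32028, of which 26825 with identical coordinates) joined the tables.

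The planned limma test needs a value per sample and could not be applied, so differences are values and counts at a log2 difference of 1. The genes, lists and the identifiers of clock, wall and sugar genes were chosen with earlier results of these data known. The 35 families defined by description had 0 genes, since no table used here pairs identifiers with descriptions. Named genes are the 25 deepest dips at 5 FPKM or more, the 10 highest levels, those at the edge of the rule, those at 0 in D2, the 3 largest groups of neighbours, the 2 largest increases and decreases per stage step at 5 FPKM or more in the higher stage, and identifiers on the list. A few more were chosen after their values were seen. These are Sobic.009G199401, the clock, PAL, C4H, CCoAOMT, CAD and NAC genes, and the other SWEET and cellulose synthase genes of the list. The rule and the scalings were tried on simulated data with dips planted only in abundant genes and with little noise. That trial does not cover genes at low levels or the unknown spread between replicates. Computation used numpy 2.4.6 and pandas 2.3.3 under Python 3.11.15, and figures matplotlib 3.10.9.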

Additional observations from a re-analysis of the deposited data

How the results depend on the processing

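Each gene group rests on single values per column, with depth unknown, so neither counting error nor replicate error can be given. No paired analysis was possible because the deposited columns give 1 value per group, and no replicate could be left out for the same reason. The number of dipping genes depended on the pseudocount, at 560 with 0.1 FPKM and 123 with 5. It was 204 with a mean of at least 5 FPKM, 274 after median ratio rescaling, 236 after quantile normalization (233 of them among the 285) and 242 without rows of several models or a shared locus. The turned rule found 174 genes with 0.1 FPKM, 43 with 5 and 66 with a mean of at least 5 FPKM. It found 114 after median ratio rescaling, 115 after quantile normalization and 83 without rows of several models or a shared locus. With 5 FPKM, 23 log2 differences of named genes, dips or stage steps, fell below 1 and 60 did not. With 0.1 FPKM the share of dipping genes lower in D3 than in D1 was 20.4%, and with 5 FPKM the share lower at soft dough was 0.00% against the milky stage and 7.44% against floral initiation. Under the alternative pseudocounts, filters and scalings and without those rows, which give overlapping sets of genes, the share lower at booting than at floral initiation was 49.6% to 55.8% and the share higher at soft dough than at the milky stage 48.7% to 54.5%. Over all matched genes these shares were 7.34% to 16.1% and 3.20% to 8.48% under the same settings. Measured against D1 alone, 1050 genes dipped and 768 peaked. Of those 1050, 4.19% were higher and 42.1% lower in D3 than in D1. Of the 1013 matched, 32.4% were lower at booting than at floral initiation, 17.2% higher at the milky stage than at booting, 24.98% higher and 5.23% lower at soft dough than at the milky stage, and 20.9% higher and 23.8% lower at soft dough than at floral initiation. Measured against D3 alone, 659 genes dipped and 152 peaked. Of those 659, 43.4% were higher and 5.77% lower in D3 than in D1, and of the 640 matched, 40.8% were higher at soft dough than at the milky stage and 27.5% than at floral initiation. These 2 alternatives are wider rules by construction. The shares over all matched genes are the same for them as for the main rule, such as 12.7% lower at booting and 5.65% higher at soft dough than at the milky stage.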
